A study of Mus musculus with 10 samples.

Results

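The regions described here are the H3K27ac peaks of WT cells on which a WT H3K27me3 peak also lay. An overlap of 1 bp or more was enough, and 1884 of the 4571 WT H3K27ac peaks were members by this rule (41.2%, 95% Wilson interval 39.8 to 42.7). The other 2687 H3K27ac peaks had no H3K27me3 peak over them. Members were chosen by the WT peak positions of these 2 marks, so the overlap itself is given as a description. The lists came from spike-in ChIP-seq (ChIP-Rx) of mCherry+ cells sorted from day 4 embryoid bodies (EBs), aggregates of differentiating mouse embryonic stem (ES) cells, which the labels call mesoderm. WT stands for *Scl:mCherry* (genotype Scl wt), an ES cell reporter line with mCherry in the *Scl* locus. Delta stands for *Scl d/d:mCherry* (genotype Scl d/d), which was derived from that line and carries on both alleles a deletion of the part of *Scl* that encodes the basic helix-loop-helix region. SCL is a transcription factor needed to specify blood, and its gene is annotated as *Tal1*. Both genotypes therefore carried the reporter, each was 1 line, and *Drosophila* S2 cells were mixed into both before ChIP. H3K27ac, H3K27me3, H3K4me3 and H2AK119ub were profiled in a single library for each mark in each genotype, so the differences below have no replicate check and no test was possible. The intervals below cover counting error only, and neighbouring peaks are not independent.

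The 8 lists held 70826 peaks, between 2388 for H2AK119ub in Delta and 16038 for H3K4me3 in WT. Read depth cannot be derived from peak lists, and the read totals that the study states were not used here. Of the 8 mesoderm markers *T*, *Mixl1*, *Kdr*, *Pdgfra*, *Mesp1*, *Etv2*, *Tal1* and *Lmo2*, all had a WT H3K4me3 peak within 2500 bp of a transcription start site (TSS), and of these only *Tal1* and *Lmo2* had WT H3K27ac there. Of 15 markers of pluripotent, neural, endodermal, cardiac and erythroid cells none had H3K27ac at the TSS in either genotype. WT H3K27me3 was listed at 9 of them, among them *Sox17*, *Foxa2*, *Nkx2-5*, *Pax6* and *Klf1*, and WT H3K4me3 also at 9. *Nanog*, *Cer1*, *Tnnt2* and *Hbb-bh1* had no peak of any mark. WT H3K27me3 was not particular to these other markers, as all mesoderm markers except *Etv2* had it too. The marks are those of a sorted population. A peak held by fewer cells and a weaker mark in each cell cannot be told apart in such data.

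Acetylation of histone H3 at lysine 27 (H3K27ac) marks active promoters and enhancers. Trimethylation of the same lysine (H3K27me3) is set by Polycomb repressive complex PRC2 and marks silenced developmental genes, and H2AK119ub, a ubiquitin on histone H2A, is set by PRC1. H3K4me3 marks promoters with CpG islands, and developmental promoters that hold H3K4me3 and H3K27me3 at once are called bivalent. As 1 lysine cannot be acetylated and trimethylated together, an overlap of these peaks joins signals from different histone tails, which can lie on the same or a neighbouring nucleosome, on different alleles or in different cells. Peak lists do not separate these cases. The input libraries were not examined here. Whether a weak H3K27me3 peak at a promoter stands for the mark or for background was therefore not assessed.

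The stretches below show what lay where both WT peaks overlapped. Each is 200 bases long, read from the reference genome (NCBIM37, mm9) along the gene's strand and free of annotated exons, and capitals mark CpG dinucleotides. *Srsf5* had the highest H3K27ac enrichment of all members (chr12:82046786-82046985, + strand, intron). *Dusp4* had the longest overlap (chr8:35871228-35871427, + strand, intron). *Rpl4* is the ribosomal protein gene with the longest overlap (chr9:64020994-64021193, + strand, just before the TSS and outside annotated genes). *Tal1* (chr4:114729843-114730042, + strand, just before a coding TSS and inside a longer transcript), *Fli1* (chr9:32348576-32348775, - strand, intron), *Cbfa2t3* (chr8:125202076-125202275, - strand, just before a coding TSS, within the *Cbfa2t3* and *Gm20388* spans) and *Hhex* (chr19:37509797-37509996, + strand, within the gene span and 1233 bp or more before a coding TSS) are blood regulators whose acetylation was not listed in Delta.
Srsf5: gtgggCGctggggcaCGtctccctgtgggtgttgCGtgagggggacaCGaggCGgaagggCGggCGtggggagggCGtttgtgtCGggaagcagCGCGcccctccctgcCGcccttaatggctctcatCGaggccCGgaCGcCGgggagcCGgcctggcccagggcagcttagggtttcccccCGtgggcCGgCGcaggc
Dusp4: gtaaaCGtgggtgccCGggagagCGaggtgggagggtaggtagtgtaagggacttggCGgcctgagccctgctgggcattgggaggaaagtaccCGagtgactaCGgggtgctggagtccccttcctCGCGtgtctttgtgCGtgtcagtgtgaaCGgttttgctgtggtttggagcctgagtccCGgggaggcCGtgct
Rpl4: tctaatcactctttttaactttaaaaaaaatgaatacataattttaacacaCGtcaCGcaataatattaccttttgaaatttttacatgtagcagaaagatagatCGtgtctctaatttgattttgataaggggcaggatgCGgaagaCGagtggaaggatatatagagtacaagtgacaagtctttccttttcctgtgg
Tal1: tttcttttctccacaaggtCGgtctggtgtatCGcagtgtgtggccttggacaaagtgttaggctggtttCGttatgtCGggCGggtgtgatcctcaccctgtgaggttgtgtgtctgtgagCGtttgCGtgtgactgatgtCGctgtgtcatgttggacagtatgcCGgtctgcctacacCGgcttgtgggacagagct
Fli1: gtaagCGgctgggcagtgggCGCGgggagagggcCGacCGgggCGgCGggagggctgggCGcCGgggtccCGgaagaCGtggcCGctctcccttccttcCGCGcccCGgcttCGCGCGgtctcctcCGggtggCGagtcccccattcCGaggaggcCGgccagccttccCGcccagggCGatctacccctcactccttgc
Cbfa2t3: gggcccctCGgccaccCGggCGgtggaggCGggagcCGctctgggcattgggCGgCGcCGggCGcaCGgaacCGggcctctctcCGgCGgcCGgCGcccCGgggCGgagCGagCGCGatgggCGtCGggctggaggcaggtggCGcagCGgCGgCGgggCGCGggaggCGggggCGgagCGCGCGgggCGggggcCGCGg
Hhex: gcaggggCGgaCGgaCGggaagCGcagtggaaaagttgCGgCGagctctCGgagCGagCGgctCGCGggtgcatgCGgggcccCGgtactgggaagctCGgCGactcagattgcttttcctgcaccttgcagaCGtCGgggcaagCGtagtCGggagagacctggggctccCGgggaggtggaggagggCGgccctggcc
CpG dinucleotides numbered 36 in the *Cbfa2t3* stretch (86% G+C), 24 at *Fli1*, 21 at *Hhex*, 20 at *Srsf5*, 12 at *Dusp4*, 10 at *Tal1* and 5 in the *Rpl4* stretch, which had 33% G+C.

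Members were CpG-rich as a set. In the 500 bp around the peak centre the median G+C content was 68.4% (quartiles 63.2 to 73.2) and the median number of CpGs 51. The other H3K27ac peaks had 62.6% and 38, and those of them at a TSS 65.4% and 44. H3K27me3 peaks without H3K27ac had 53.4% and 13. With a G+C content of at least 50% and a ratio of observed to expected CpGs of at least 0.6, 95% of members looked like CpG islands, against 86.5% of the other H3K27ac peaks at a TSS. Members and other H3K27ac promoters were thus alike in kind, with somewhat more CpGs under members.

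Short motifs were counted in the same 500 bp windows on both strands, beside their share in all 4571 WT H3K27ac peaks and in the other H3K27ac peaks at a TSS. The ETS letters CCGGAAG were found in 18.3% of members (95% interval 16.6 to 20.1) and in 19% of all peaks. Among the other H3K27ac peaks at a TSS their share was 23.7% (21.9 to 25.6). GCATGCGC, the core bound by NRF1, was found in 2.49% of members, 4.92% of the others at a TSS and 3.43% of all peaks. The shares for CCAAT were 27%, 31.4% and 31.1%. The E-box letters CAGCTG or CAGATG, of the kind that SCL binds with its E-protein partners, were found in 28.5% of members and 31.7% of all peaks. Among the others at a TSS they were found in 29.3%, close to the share of members. The GATA letters AGATAA or TGATAA were found in 7.22% of members (6.14 to 8.48), in 10.9% of the other H3K27ac peaks at a TSS (9.64 to 12.3) and in 14% of all peaks. GATA letters were thus rarer under members than under other H3K27ac promoters, as were ETS, NRF1 and CCAAT letters. GATA letters were most frequent, at 43.7%, in H3K27ac peaks away from a TSS. Members also had a higher G+C content than the other H3K27ac promoters (median 68.4% against 65.4%), whose part was not tested.

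The median overlap was 361 bp (quartiles 243 to 592, range 7 to 2625), which is 71.1% of the member's length at the median (42.2 to 94.5). In 1613 members (85.6%) the overlap reached 200 bp, about the length of DNA of a nucleosome with its linker, and in 19 it was under 50 bp. Most overlaps were therefore long enough to hold a nucleosome, and few came from edges that only just met. Partial overlap was the commonest arrangement (1038 members, 55.1%). The H3K27me3 peak lay wholly inside the H3K27ac peak in 492 members (26.1%) and the H3K27ac peak wholly inside the H3K27me3 peak in 346 (18.4%), while 8 members touched more than 1 H3K27me3 peak. In all, 0.854 Mb lay in both peaks, which is 27.4% of the length under WT H3K27ac and 2.81% of that under WT H3K27me3.

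The longest overlaps were at *Dusp4*, a phosphatase that switches off MAP kinases (2625 bp of a 4167-bp H3K27ac peak), at the shared promoter of *Enoph1* and *Hnrpdl* (2011 bp), at *Ncl*, which encodes nucleolin (1964 bp), at the shared promoter of *Cbx3* and *Hnrnpa2b1* (1931 bp) and at that of *Safb* and *Safb2* (1899 bp). Members covered over their whole length were longest at *Rpl4*/*Zwilch* (1668 bp), *Atf3*, a stress-induced transcription factor (1661 bp), and *Arid4a* (1612 bp). At the other end, the overlap was 7 bp at *Ring1*, which encodes a PRC1 subunit, 10 bp at *Zmiz1* and 10 bp at *Rb1*, the retinoblastoma gene. The nearest peaks that missed the rule lay 1 bp from an H3K27me3 peak at *Rnf217*, 2 bp away in an exon 17541 bp from *Wdr43*, and 3 bp away at *Vps54*. Such near misses were few. Of the other H3K27ac peaks 76 (2.83%) lay within 500 bp of an H3K27me3 peak, and the median distance was 47952 bp.

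Members were longer and more enriched than the other H3K27ac peaks, with a median length of 650 bp against 468 bp and a median fold enrichment over local background, the authors' ratio for each peak, of 4.34 against 3.99. The share of H3K27ac peaks that were members was 27.4% in the shortest of 4 length classes of equal size and 54% in the longest, and 28.3% and 56.5% in the lowest and highest of 4 such classes of fold enrichment. A longer peak has more room for an overlap of 1 bp, so the difference in length can follow from the rule in part. Among the strongest members were those at *Srsf5*, a splicing factor (9.37-fold), *Usp48*, a deubiquitinase (8.37), *Ndufa6*, a subunit of respiratory complex I (7.87), and *Rab7*, a GTPase of late endosomes (7.78). Their roles lie in splicing, protein turnover, respiration and vesicle traffic.

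To ask which H3K27me3 peaks lay under acetylation, the 1891 WT H3K27me3 peaks touched by members were set beside the other 9454. Those under members had a median length of 580 bp and a median fold enrichment of 3.44, against 1705 bp and 3.82 for the others. H3K4me3-carrying H3K27me3 peaks without H3K27ac were longer still (2938 bp, 4.66-fold). All 1891 H3K27me3 peaks under members carried WT H3K4me3 too. The share of H3K27me3 peaks lying under H3K27ac fell from 33% (95% interval 31.1 to 34.9) of those under 500 bp to 13.8% of those from 1000 to under 2000 bp, 2.88% of those from 2000 to under 5000 bp and 0.698% of those of 5000 bp or more. H3K27ac thus met mostly short and weak H3K27me3 peaks. H2AK119ub was listed in WT over 2.12% of the H3K27me3 peaks under members (1.56 to 2.87) and over 22.9% of the others (22.1 to 23.8). A gap was also seen at matched length. From 1000 to under 2000 bp the shares were 4.68% (2.81 to 7.7) and 10.9% (9.6 to 12.4), while from 5000 bp upward they were 63.6% of 11 under members and 68.4% of those without H3K27ac.

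**Figure D1:**
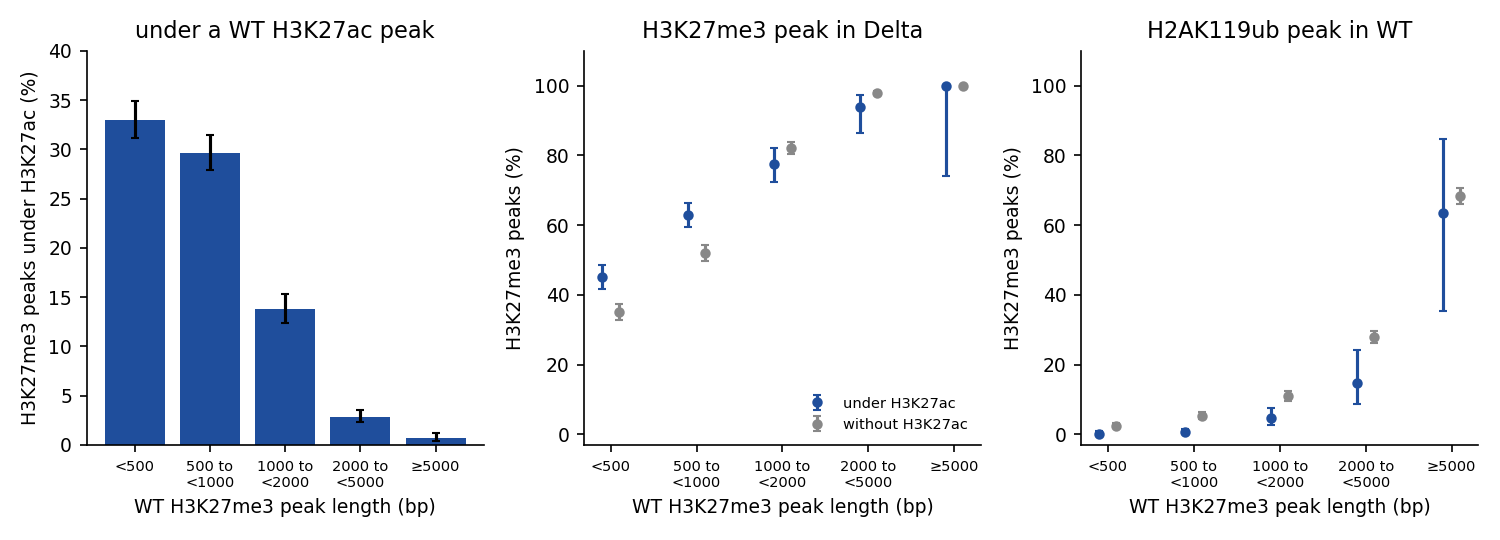
WT H3K27me3 peaks by length class: the share lying under a WT H3K27ac peak (left, bars), and the share with an H3K27me3 peak in Delta (middle) and with H2AK119ub in WT (right), for peaks under H3K27ac (blue) and without it (grey), all in % with 95% Wilson intervals. The share under H3K27ac falls from 33% to 0.698% with length, while the share with H2AK119ub rises in both groups.

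Nearly all members were promoters. A coding TSS lay within 2500 bp of 1841 members (97.7%), against 85.1% of all WT H3K27ac peaks and 76.3% of the others. All 1884 members carried H3K4me3 in WT, where the share over all WT H3K27ac peaks was 88.4% and over the others 80.3%, and all 1884 carried it in Delta too (all peaks 87.7%). Among peaks at a TSS H3K4me3 was near complete also without H3K27me3 (97.7%). The gap was wider away from TSSs, where all 43 such members carried H3K4me3 against 24.2% of the other 636 peaks. Of these 43 members, 25 were intergenic, 13 exonic and 5 intronic. H3K27ac peaks far from promoters, where enhancers are found, were therefore few among members.

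H2AK119ub was listed over 22 members in WT (1.17%, 0.772 to 1.76), over 0.809% of all WT H3K27ac peaks and over 0.558% of the others (0.339 to 0.919). In Delta it was listed over 6 members (0.318%, all peaks 0.241%). The PRC1 mark was thus rare at acetylated promoters with or without H3K27me3, and the intervals of members and others overlap. The longest stretches of H2AK119ub within a member, named after their values were seen, were at *Ier5* (860 bp), *Phlpp1* (665 bp), *Atf3* (607 bp), *Sox4* (607 bp), *Ahdc1* (556 bp) and *Cbfa2t3* (491 bp). Of these 6, only *Atf3* kept any of it in Delta, at 4 bp. The H2AK119ub list was shorter in Delta as a whole, with 2388 peaks against 4922 in WT. Over all WT H3K27me3 peaks the mark was listed at 19.4% in WT and 10.7% in Delta.

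Both marks lay just downstream of the TSS. In the 1509 members with TSSs on 1 strand, the centre of the H3K27ac peak was at a median of 225 bp after the TSS (quartiles 40 to 357) and that of the H3K27me3 peak at 358 bp (214 to 505), and the H3K27me3 centre was downstream in 87.5%. WT H3K27me3 covered 26.6% of these promoters at the TSS itself and 79.1% at 300 bp after it. H3K27ac covered 48.9% at the TSS and 84.3% at 250 bp. Centres of the peaks of both marks were 173 bp apart at the median (64 to 351). Peaks of both marks lay over the same stretch after the TSS at most of these promoters. That they lay together follows from the rule, which did not use the distance from the TSS. In Delta the H3K27me3 profile also had its highest value at 300 bp, at 46.9%. As members were chosen for a WT H3K27me3 peak, a lower Delta share follows from the rule in part.

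**Figure D2:**
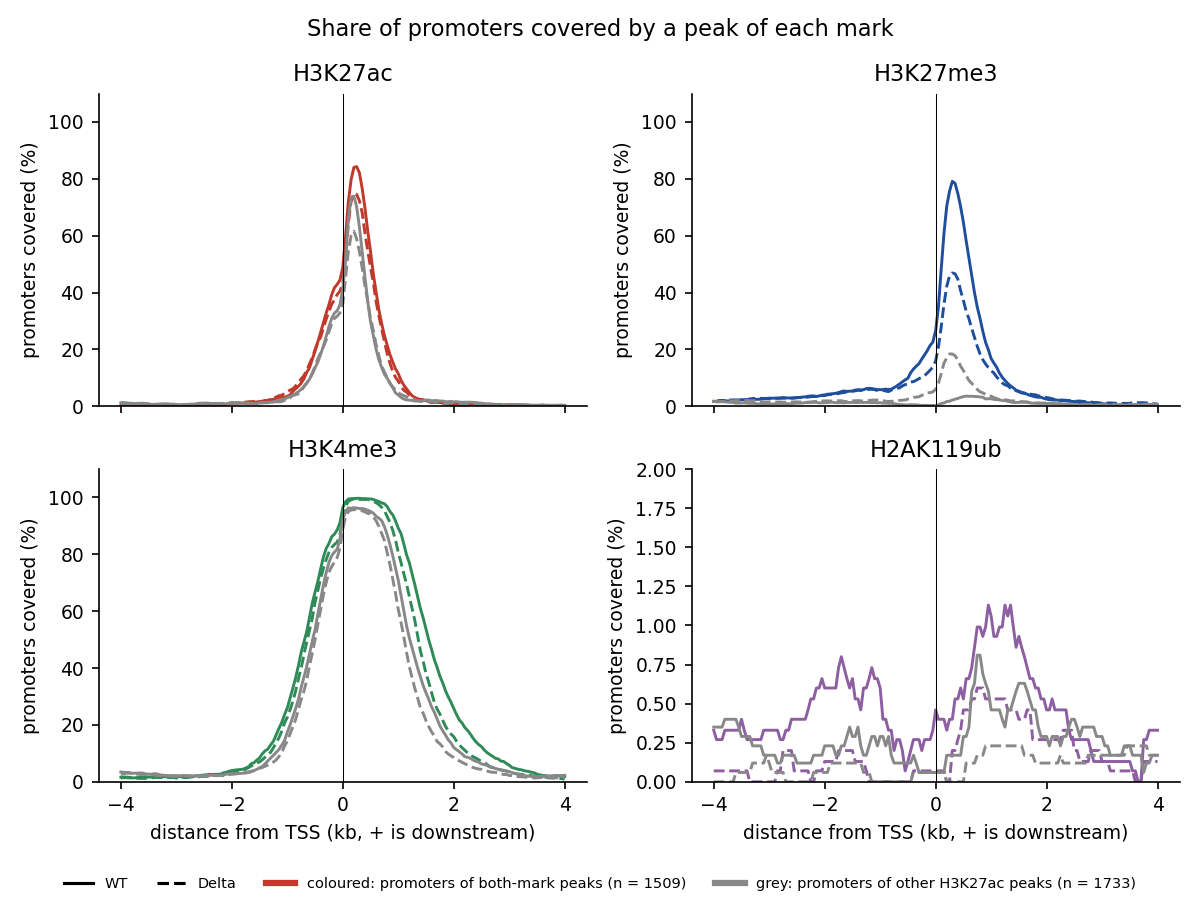
Share of promoters (%) covered by a peak of each mark by distance from the TSS (kb, downstream positive), for promoters of H3K27ac peaks on H3K27me3 (coloured, n = 1509) and of the other WT H3K27ac peaks (grey, n = 1733), in WT (solid) and Delta (dashed); the H2AK119ub axis ends at 2%. H3K27ac and H3K27me3 both peak 200 to 300 bp after the TSS in members, and the WT H3K27me3 curves are set by the rule, which asks for that peak in members and keeps it away from the grey promoters.

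To describe the genes, members were assigned to protein-coding genes with a TSS within 2500 bp. Of 22372 protein-coding genes, 2171 had a member (9.7%), which is 48.9% of the 4440 genes with H3K27ac and 27.9% of the 7791 with H3K27me3 at a TSS. Cytosolic ribosomal protein genes stood highest among 18 gene lists, with a member at 64 of 83 (77.1%, 67 to 84.8). Of these 83 genes 72 had WT H3K27ac, so 88.9% of the acetylated ones also had H3K27me3 under it. Next came blood regulators with 8 of 24 (33.3%, 18 to 53.3), Polycomb subunit genes with 10 of 31 (32.3%), BMP and TGF-beta pathway genes with 9 of 38 (23.7%) and Notch pathway genes with 4 of 18 (22.2%). For these lists too, the share among acetylated genes was above the 48.9% of all genes, on few genes and without a test. It was 66.7% of 12 blood regulators, 58.8% of 17 Polycomb genes, 75% of 12 BMP and TGF-beta genes and 80% of 5 Notch genes. Among the other lists it varied widely, for example from 0% of 6 Wnt genes to 100% of 2 cardiac genes.

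The other lists held between 0 and 5 genes with a member, beside the 9.7% of all protein-coding genes. There were 2 of 24 cardiac genes, 2 of 24 endothelial genes, 2 of 18 pluripotency genes, 2 of 43 forkhead genes, 1 of 20 FGF pathway genes, 1 of 7 cell cycle inhibitors and 5 of 43 imprinted genes, of which the shares for cell cycle inhibitors (14.3%), imprinted (11.6%) and pluripotency genes (11.1%) were above 9.7%. No member lay at the 39 Hox cluster genes, 44 Wnt pathway genes, 28 neural transcription factors, 19 paraxial mesoderm genes or 18 primitive streak genes. All 39 Hox genes and all 28 neural genes had WT H3K27me3 and none of them had WT H3K27ac. The 67 replication-dependent histone genes had the opposite pattern, with H3K27ac at 21, H3K27me3 at 5 and no member.

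**Figure D3:**
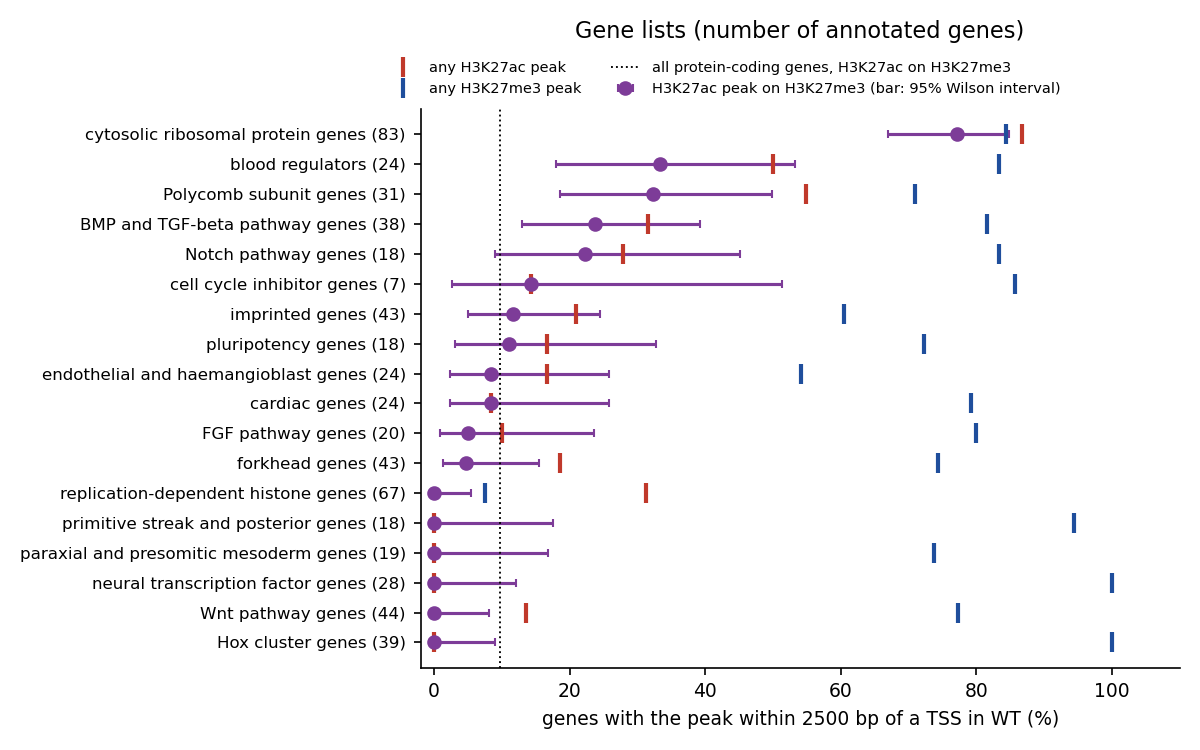
Share of the annotated genes of each list (%) with an H3K27ac peak on H3K27me3 (purple, 95% Wilson interval), with any H3K27ac peak (red) and with any H3K27me3 peak (blue) within 2500 bp of a TSS in WT; the dotted line is the share of all protein-coding genes with a member, 9.7%. Ribosomal protein genes stand at 77.1% and Hox genes at 0 with H3K27me3 at all 39.

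To see which marks were kept without functional SCL, the Delta lists were laid over the members. At a later EB stage the study found the surface protein PDGFRα on far more mCherry+ cells of Delta than of WT. A peak not listed in Delta therefore cannot be told apart from a change in the make-up of the sorted cells. A Delta H3K27ac peak overlapped 1631 members (86.6%, 85 to 88), where the share over all WT H3K27ac peaks was 73.5% and over the others 64.3% (62.5 to 66.1). A Delta H3K27me3 peak overlapped 1090 (57.9%, 55.6 to 60.1), against 33.8% over all peaks and 16.9% (15.5 to 18.4) over the others. Both marks were listed in Delta over 985 members (52.3%, 50 to 54.5; all WT H3K27ac peaks 30.2%). H3K27ac alone was listed over 646 (34.3%), H3K27me3 alone over 105 (5.57%) and neither over 148 (7.86%). Among peaks at a TSS, Delta H3K27ac overlapped 86.6% of members (85 to 88.1) and 75.5% of the others (73.6 to 77.3), and Delta H3K27me3 58% and 21.3%. Members were chosen for a WT H3K27me3 peak and the others for its absence. The higher Delta shares of H3K27me3 and of both marks in members therefore follow from the rule in part. Acetylation was thus listed again more often than H3K27me3 over members. It was listed more often in members than in other peaks within each of the 4 classes of peak length, with 64.8% against 55.3% in the shortest class and 96.3% against 70.3% in the longest.

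H3K27me3 under members was kept less often than elsewhere, with 59.4% (57.2 to 61.6) of the H3K27me3 peaks under members having a Delta peak against 76.3% of those without H3K27ac and 73.5% of all. At matched length this order turned for the short peaks. Below 500 bp 45% (41.6 to 48.5) were kept under members and 35% (32.7 to 37.4) elsewhere, and from 500 to under 1000 bp 63% and 52.1%. From 1000 to under 2000 bp the shares were 77.6% (72.5 to 82) and 82.1% (80.3 to 83.8), and from 2000 to under 5000 bp 93.8% and 98%. The lower share over all lengths therefore moved with the short length of the peaks under members. For the members that held both marks in both genotypes, the H3K27me3 peak had a median length of 665 bp in WT against 544 bp in Delta, shorter in 565 members and longer in 415.

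**Figure D4:**
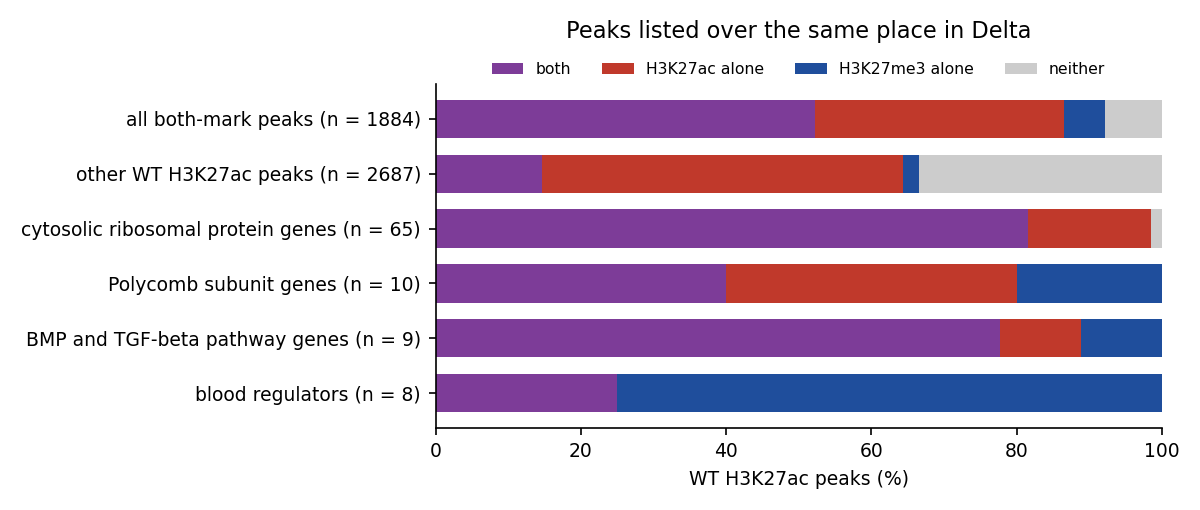
Share of WT H3K27ac peaks (%) over which Delta lists both H3K27ac and H3K27me3, only 1 of these marks or neither, for all members, for the other WT H3K27ac peaks and for members at 4 gene lists (n, number of peaks). Ribosomal protein members mostly held both marks, and 6 of 8 blood regulator members held H3K27me3 alone, against 5.57% of all members.

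Ribosomal protein genes kept acetylation almost throughout. Their 64 genes had 65 members, of which 53 held both marks in Delta, 11 H3K27ac alone and 1 neither, and none had H2AK119ub in WT. The H3K27me3 peaks under them ran from 274 to 1960 bp in WT with a median of 809 bp, and the median overlap was 573 bp, 82.1% of the member. At *Rpl4* a 1668-bp H3K27ac peak lay inside a 1960-bp H3K27me3 peak, which was 1407 bp long in Delta. At *Rpl9* the overlap was 1131 bp and the H3K27me3 peak was 1208 bp long in WT against 856 bp in Delta. The overlap at *Rps14* was 1129 bp, with an H3K27me3 fold enrichment of 5.74, and that at *Rpl10a* was 1038 bp. In these 4 examples, chosen for long WT overlap, both marks were listed in Delta and the H3K27me3 peak was shorter there. Over the 53 ribosomal protein members with both marks it was shorter in 35 and longer in 18.

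Blood regulators were distributed otherwise, a difference that was not tested. Of their 8 members, at *Gata2*, *Fli1*, *Cbfa2t3*, *Hhex*, *Tal1*, *Lmo2*, *Zfpm1* and *Tcf3*, 6 held H3K27me3 alone in Delta and 2 held both marks. *Gata2*, *Hhex*, *Lmo2* and *Tcf3* were named after their values were seen. The absence of Delta H3K27ac was not particular to members, as it was not listed in Delta over 4 of the 5 WT H3K27ac peaks at blood regulators without H3K27me3 either (2 at *Nfe2*, 1 at *Erg* and 1 at *Lyl1*, with *Ldb1* keeping it). *Gata2*, a zinc finger factor of blood stem cells and progenitors, had a 189-bp H3K27ac peak inside a 5599-bp H3K27me3 peak in WT, which measured 15273 bp in Delta. At *Fli1*, an ETS factor of blood and endothelium, 691 bp of an 820-bp H3K27ac peak lay on H3K27me3, and the H3K27me3 peak was 1287 bp long in WT against 11206 bp in Delta. *Cbfa2t3*, which encodes the SCL-associated co-repressor ETO2, had its 593-bp H3K27ac peak covered whole, and its H3K27me3 peak ran over 1482 bp in WT against 10930 bp in Delta. These were the 3 longest Delta H3K27me3 peaks over the 105 members with H3K27me3 alone.

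The next longest was at *Hhex*, a homeobox factor of early blood and endothelial cells, where 3452 bp in WT stood against 8267 bp in Delta and the 545-bp H3K27ac peak was covered whole. At *Tal1* itself the overlap was 1153 bp of an 1833-bp H3K27ac peak, and the H3K27me3 peak was 1800 bp long in WT against 3790 bp in Delta. The *Tal1* locus differs between the lines by design, and the deleted part was not assessed from the peaks. *Lmo2*, the LIM-only partner of SCL, had 297 bp of overlap and H3K27me3 peaks of 850 bp and 1272 bp. The nearest Delta H3K27ac peak lay 55937 bp from the member at *Tal1*, 507605 bp from that at *Fli1* and between these distances from the other 4. The members at *Gata2* and *Hhex* lay 1361 bp and 1233 bp from the nearest coding TSS. The H3K27me3 peak was longer in Delta at all 6, by 1.5 times at *Lmo2* to 8.71 times at *Fli1*, whereas over the 105 members with H3K27me3 alone it was longer in 59 and shorter in 46. Each length is that of a single called peak. Whether neighbouring WT peaks at these genes would join into longer ones was not assessed.

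At *Zfpm1*, which encodes the GATA cofactor FOG1, and *Tcf3*, which encodes the E-proteins that pair with SCL, both marks were listed in Delta. *Zfpm1* had a 2874-bp H3K27ac peak and an overlap of 1662 bp, and its H3K27me3 peak measured 1662 bp in WT and 661 bp in Delta. At *Tcf3* the overlap was 403 bp and the H3K27me3 peak measured 505 bp and 248 bp. The H3K27me3 peak was thus shorter in Delta where acetylation was kept and longer where it was not, over these 8 members. These lengths come from peak calls without spike-in scaling. With scaled signal and western blot, the study reported globally lower H3K27me3 in Delta. It found the mark SCL-dependent at direct targets that SCL represses and, less so, at those it activates. A longer peak here does not therefore show a higher level. The values of these 8 members rest on weak WT peaks. With a −log10 q of at least 3 asked of every peak, 3 of the 8 remained members, and *Gata2* and *Hhex* were those with H3K27me3 alone in Delta. At a TSS distance of 1000 bp *Gata2* and *Hhex* were no longer assigned a member, and *Cbfa2t3*, *Fli1*, *Lmo2* and *Tal1* were those with H3K27me3 alone. *Cbfa2t3* and *Zfpm1* lie on chromosome 8; without chromosomes 1 and 8, 5 of 6 blood regulators had H3K27me3 alone.

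**Figure D5:**
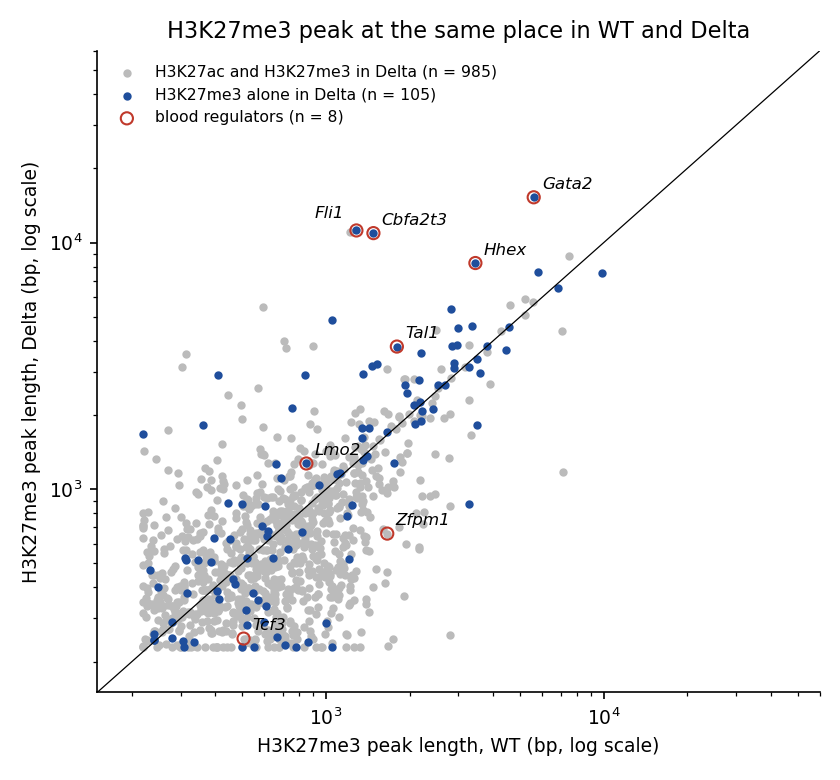
Length of the H3K27me3 peak over each member in WT (x axis) and Delta (y axis), in bp on log scales, for members with both marks (grey, n = 985) or H3K27me3 alone (blue, n = 105) in Delta; red circles are the 8 blood regulators and the line marks equal length. Gata2, Fli1, Cbfa2t3, Hhex, Tal1 and Lmo2 lie above the line, Zfpm1 and Tcf3 below it.

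Members on long H3K27me3 peaks formed a small group. On H3K27me3 peaks of at least 2000 bp, a limit chosen after the lengths were seen, there were 93 members (4.94%). They were mostly covered whole (62 of 93), with a median H3K27ac length of 411 bp against 662 bp for the 1791 members on shorter H3K27me3 peaks. H3K27ac was listed in Delta over 61.3% of them (51.1 to 70.6) and over 87.9% (86.3 to 89.3) of members on shorter peaks. For H3K27me3 the shares were 76.3% and 56.9%, and for WT H2AK119ub 8.6% (4.42 to 16.1) and 0.782% (0.466 to 1.31). These short islands of H3K27ac within long H3K27me3 were thus less often listed in Delta, and their shorter H3K27ac peaks moved with that, whose part was not tested.

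The longest such H3K27me3 peaks, also named after their values were seen, were at *Dusp8*, a MAP kinase phosphatase (9850 bp), *Scrt1*, a neural zinc finger repressor (7563 bp), *Lsm14b* (7514 bp), *Prdm6* (7121 bp), *Cux1* (7051 bp), at a place 5773 bp from *Pura* (6864 bp) and at *Reln*, which encodes the secreted protein reelin (5817 bp). At *Dusp8*, a 206-bp H3K27ac peak was covered whole and not listed in Delta, where the H3K27me3 peak measured 7499 bp. *Reln* likewise had no H3K27ac over the member in Delta, with H3K27me3 of 7569 bp in Delta. At *Atf3* both marks were kept, with H3K27me3 peaks of 5584 bp and 5756 bp and Delta H3K27ac over 966 bp of the member. Long H3K27me3 was therefore met by both outcomes.

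Polycomb subunit genes had 10 members, with both marks in Delta at *Rnf2*, *Suz12*, *Ring1* and *Mtf2*, H3K27ac alone at *Ezh2*, *Aebp2*, *Phc3* and *Pcgf3*, and H3K27me3 alone at *Pcgf5* and *Kdm2b*. *Ezh2*, the PRC2 methyltransferase, had 431 bp of overlap in a 1614-bp H3K27ac peak on a 442-bp H3K27me3 peak. At *Suz12*, a PRC2 core subunit, the overlap was 423 bp and the H3K27me3 peak measured 490 bp in WT and 307 bp in Delta. *Aebp2*, a PRC2 accessory subunit, had its 497-bp H3K27ac peak covered whole by a 1977-bp H3K27me3 peak that was not listed in Delta. At *Kdm2b*, which encodes a CpG-binding PRC1 subunit, the 362-bp H3K27ac peak was covered whole, carried 143 bp of H2AK119ub in WT and was not listed in Delta. *Pcgf5*, a PRC1 subunit gene, had 109 bp of overlap, and H3K27me3 peaks of 1655 bp in WT and 1699 bp in Delta. Among these 5 genes the WT H3K27me3 peak thus ranged from 442 bp to 1977 bp.

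The BMP and TGF-beta pathway was represented by receptors, signal transducers and targets. Both marks were listed in Delta at 7 of its 9 members. Among receptors, *Bmpr1a* had 1092 bp of overlap with H3K27me3 peaks of 1092 bp (WT) and 837 bp (Delta), and *Acvr2b* 711 bp with peaks of 717 bp and 747 bp. The inhibitory *Smad6* had its 829-bp H3K27ac peak covered whole by a 2226-bp H3K27me3 peak and carried 317 bp of H2AK119ub in WT. *Smad7*, also inhibitory, had 552 bp of overlap and H3K27me3 peaks of 1664 bp in WT and 3080 bp in Delta. *Bmp2*, a ligand also listed among cardiac genes, had a 210-bp H3K27ac peak inside a 3498-bp H3K27me3 peak and held H3K27me3 alone in Delta (3390 bp). The WT H3K27me3 peak was thus longer at *Bmp2* than at *Bmpr1a* and *Acvr2b*, with the inhibitory *Smad6* and *Smad7* in between.

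Delta H3K27ac was listed over all 4 Notch pathway members, beside 86.6% of all members. *Hes1*, a transcriptional target of Notch, had 851 bp of overlap and H3K27me3 peaks of 899 bp in WT and 1274 bp in Delta. At the receptor gene *Notch2* the 310-bp H3K27ac peak was covered whole by a 360-bp H3K27me3 peak not listed in Delta. *Rfng*, whose TSS region is shared with *Gps1*, had 178 bp of overlap, and *Nrarp*, a feedback inhibitor, 156 bp. Among other signalling genes, *Spry2*, an FGF pathway inhibitor, had a 288-bp H3K27ac peak covered whole, and neither mark was listed there in Delta.

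Endothelial and pluripotency genes gave 2 members each. *Vegfa*, the endothelial growth factor, had its 737-bp H3K27ac peak covered whole, and held H3K27me3 alone in Delta, with peaks of 1525 bp in WT and 3218 bp in Delta. *Ets2* had 349 bp of overlap and neither mark in Delta. *Klf2* had a 480-bp H3K27ac peak inside an H3K27me3 peak of 4555 bp and 10.4-fold enrichment in WT, and H3K27me3 alone in Delta (4548 bp). *Sall4*, a zinc finger factor of pluripotent cells, had 1261 bp covered whole and kept both marks. Outcomes in these lists were thus mixed. The forkhead genes *Foxo3* (638 bp of overlap) and *Foxn3* (181 bp) held H3K27ac alone in Delta, as did *Myl4*, whose TSS region is shared with *Cdc27* (345 bp). *Cdkn1b*, an inhibitor of cyclin-dependent kinases, had 85 bp of overlap and kept both marks.

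At imprinted genes the alleles are expected to differ, as 1 parental copy is silenced. The 5 imprinted genes with a member had 6 members, of which 1 held both marks in Delta, 2 H3K27ac alone, 1 H3K27me3 alone and 2 neither. *Zrsr1* had 988 bp of overlap in a 1412-bp H3K27ac peak and neither mark in Delta, and *Peg3* had 175 bp and neither. *Gnas* had 2 members, 1 with 437 bp of overlap and H3K27ac alone in Delta and 1 of 178 bp inside a 2676-bp H3K27me3 peak, which held H3K27me3 alone (2654 bp). *H13* had 323 bp covered whole and *Zdbf2* 219 bp of overlap. Alleles were not separated in these lists, so which parental copy held which mark was not assessed.

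The longest H3K27ac peaks of members with neither mark in Delta were at *Cited2*, a coactivator-binding protein gene (1440 bp, 612 bp of overlap), *Zrsr1* (1412 bp) and *F2r*, which encodes the thrombin receptor (1372 bp, 382 bp of overlap). Members of this class were short as a rule, with a median length of 336 bp, against 348 bp for H3K27me3 alone, 613 bp for H3K27ac alone and 766 bp for both marks. The H3K27me3 peaks under them were 440 bp, 999 bp, 488 bp and 665 bp long at the median. The class with H3K27me3 alone thus paired short H3K27ac with long H3K27me3.

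The same rule applied to the Delta lists gave 1807 of 5269 Delta H3K27ac peaks on Delta H3K27me3 (34.3%, 33 to 35.6), a lower share than the 41.2% in WT. Their median overlap was 344 bp and 1805 of them carried Delta H3K4me3, while 8 carried Delta H2AK119ub. Of the 1807, 990 (54.8%) touched a WT member, and 991 of the 1884 members (52.6%) were touched by them. The share of members holding both marks in Delta depended on the limits, being 29.5% with a −log10 q of at least 3 in every list and 29.6% with 50% of the member covered by each mark. Between chromosomes the share of WT H3K27ac peaks that were members ran from 32.5% on chromosome 6 to 50.7% on chromosome 1 (45.4 to 56.1), with 5 of 30 on the X chromosome.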

How the data were processed

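ChIP-Rx was carried out on mCherry+ cells of day 4 EBs. As the study describes it, reads were trimmed with Trim Galore, mapped with Bowtie to mm9 and dm3 and stripped of duplicates, and the authors called broad peaks per library with MACS2 2.0.10 (the version is from the submitters' processing notes) against the input of the same genotype, without pooling. The spike-in was used to scale signal tracks only, so peak lists do not show changes in overall level. The deposited values per peak are a fold enrichment over local background (a ratio) and the −log10 of a p-value and q-value. No q-value was above 0.05. The 2 inputs were not analysed here, and the study's read totals, which peak lists do not hold, were not used.

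Overlap of at least 1 bp made a member or a counterpart. Genes and TSSs of coding transcripts came from GENCODE M1 on NCBIM37 (mm9); coordinates are 1-based. Shares have 95% Wilson intervals and medians order-statistic intervals, for counting error only. Where an H3K27ac peak touched several H3K27me3 peaks, the longest gave the length. Code was tested on simulated data and checked against bedtools 2.31.1; analyses used Python 3.11.15. The members and the 18 gene lists were chosen with earlier results of these data known. Genes named were the 5 members with the longest overlap, the 5 with the highest H3K27ac fold enrichment, up to 4 per gene list by overlap, the 3 shortest overlaps, the 3 nearest non-members, the 3 longest covered whole and the 3 longest with neither mark in Delta; other members of the lists were named after their values were seen. A gene that this rule names is not reported here. The alternatives tried were a −log10 q limit of 3, 50% coverage for membership or for a Delta counterpart, joining of H3K27me3 peaks up to 3000 bp apart, leaving out chromosomes 1 and 8, and a TSS distance of 1000 bp.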

Additional observations from a re-analysis of the deposited data

How the results depend on the processing

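Of 63 values recomputed, 39 lay inside the 95% interval of the main value (counts: inside 1.5 times) and 24 did not; the cause was not tested. Keeping peaks with a −log10 q of at least 3 left 709 members, 24.4% of WT H3K27ac peaks, with a median overlap of 430 bp (75.3% of a member). Delta H3K27ac was then listed over 74.6%, Delta H3K27me3 over 37.4% and both over 29.5% of members, WT H2AK119ub over 0% (interval up to 0.539%), and the share of Delta H3K27ac peaks on Delta H3K27me3 was 21.2%. Asking for 50% coverage of the H3K27ac peak gave 28.2% of peaks as members, a median overlap of 420 bp, Delta H3K27ac over 84.3% and 21.7% for the same rule in Delta. With 50% of a member covered for a Delta counterpart, Delta H3K27ac was kept at 74.4%, H3K27me3 at 36.8% and both at 29.6%. H3K4me3 stayed at 100% in each alternative run for it. Joining H3K27me3 peaks and leaving out chromosomes 1 and 8 moved none of these shares outside its interval.

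For counts recomputed after seeing the data, a −log10 q of at least 3 left 3 blood regulators with a member, 2 of them with H3K27me3 alone in Delta, and 31 ribosomal protein members with both marks, a count that was 29 with 50% coverage of a counterpart. Delta H3K27ac over members on H3K27me3 of 2000 bp or more was 48.8% with that q limit and 72.7% with joined H3K27me3 peaks, and over members on shorter H3K27me3 it was 76.3% with the q limit, 85.9% with 50% coverage for membership and 75.4% with 50% coverage of a counterpart. No paired analysis was possible because each group held 1 library. Differences in read depth were not weighed here, and a mark not listed may lie just under the authors' threshold.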

Other observations

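Genes outside the lists also had H3K27me3 alone in Delta over a member with a longer peak there, and are named after their values were seen. Of the 105 such members, 15 had an H3K27me3 peak at least 2 times as long in Delta and 11 one at least 2 times shorter. Apart from the blood regulators, *Slc12a4*, which encodes a potassium-chloride cotransporter, had 1054 bp in WT and 4859 bp in Delta, *Arf3*, a small GTPase gene, had 410 bp and 2912 bp, and *Lrrc8b*, a volume-regulated anion channel subunit gene, had 842 bp and 2907 bp. *Rb1* had 1358 bp and 2922 bp, with 10 bp of overlap in WT. These are values of single libraries, with no replicate check.

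Both marks at a gene did not always mean a shared place. Of 2354 protein-coding genes with a WT H3K27ac peak and a WT H3K27me3 peak within 2500 bp of a TSS, 185 had no member, so their peaks of these marks lay apart.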
